A study of Mus musculus with 14 samples.

Results

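The 10 genes described here mark macrophages in skeletal muscle, and 3 of them encode complement C1q. They were chosen by gene symbol as C1qa, C1qb, C1qc, Csf1r, Adgre1, Cd68, Mrc1, Cd163, Cd14 and Lyz2, which is 10 of the 24559 named genes on the array. Of these 10 genes, 9 were bright enough to be tested among 14170 genes, and Cd163 was not. RNA came from a fast muscle, the extensor digitorum longus (EDL), and a slow muscle, the soleus, of C57BL/6 mice that were either Ts1Cje, a segmental trisomy model of Down syndrome, or wild type (WT), which means disomic. There were 3 EDL arrays and 4 soleus arrays of each genotype, 14 in all, each hybridised with 1 Cy3-labelled sample. No group carried a treatment, and the labels used here do not give the age or sex of the mice or say whether a sample was 1 animal or a pool.

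Macrophages reside between muscle fibres and in the connective tissue around them, where they take up debris and take part in repair after injury. They are the main tissue source of C1q, the recognition molecule of the classical complement pathway, which is assembled from A, B and C chains. Bound C1q activates the proteases C1r and C1s, which cleave C4 and C2 and lead to deposition of C3 on the target. Most of the other genes encode macrophage surface proteins, among them the receptor for the growth factor CSF1 (Csf1r), the adhesion receptor Adgre1, the mannose receptor Mrc1, the haemoglobin scavenger receptor Cd163 and the lipopolysaccharide co-receptor Cd14. Cd68 encodes an endosomal glycoprotein and Lyz2 the lysozyme of myeloid cells.

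All levels below are log2 signals relative to the array's own 75th percentile, so that 0 is the 75th percentile and a step of 1 is a doubling. Signals of different probes cannot be set against each other, so each gene was compared only with itself across arrays. The 75th percentile was between 68.7 and 159 intensity units, between 41.3% and 52.9% of probes were well above background, and no probe was saturated. Within groups, arrays correlated at 0.979 to 0.988. The p-values measure the spread between these samples only, and the number of arrays limits their precision. All 6 EDL arrays and Ts1Cje soleus replicate 1 were on 1 slide, and the other 7 soleus arrays were on a second slide, so muscle and slide were almost the same division of the arrays.

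The probes for the C1q chains lay side by side in the genome. In mm9 coordinates, on the minus strand of chromosome 4, the C1qb probe covered 136436578 to 136436637, the C1qc probe 136445766 to 136445825 and the C1qa probe 136452409 to 136452468. In the RefSeq annotation, 0 genes lay between C1qb and C1qc and 0 between C1qc and C1qa. Of the 3 probes, those of C1qa and C1qb are shown as deposited, because the C1q values rest on them.
C1qa probe: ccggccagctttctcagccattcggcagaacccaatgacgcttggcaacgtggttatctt
C1qb probe: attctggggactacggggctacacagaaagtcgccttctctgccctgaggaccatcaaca

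Promoters were looked up for 8 of the 10 genes, and Csf1r and Cd14 were left out. RefSeq promoter sequences of GRCm38.p6 were at hand for 6 of these 8. The 250 bases before the start site were searched on both strands for the core of PU.1 sites, GAGGAA, because PU.1 is a transcription factor that macrophages require. The promoters of C1qb (chr4:136886201-136886450, minus strand) and C1qc (chr4:136892915-136893164, minus strand) are printed 5′ to 3′ up to the start site, with the match in capitals.
C1qb promoter: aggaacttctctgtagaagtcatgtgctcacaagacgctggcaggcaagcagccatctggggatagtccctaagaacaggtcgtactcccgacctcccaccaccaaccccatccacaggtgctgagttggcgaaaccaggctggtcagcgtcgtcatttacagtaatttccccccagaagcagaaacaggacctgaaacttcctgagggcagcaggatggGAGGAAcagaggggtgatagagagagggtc
C1qc promoter: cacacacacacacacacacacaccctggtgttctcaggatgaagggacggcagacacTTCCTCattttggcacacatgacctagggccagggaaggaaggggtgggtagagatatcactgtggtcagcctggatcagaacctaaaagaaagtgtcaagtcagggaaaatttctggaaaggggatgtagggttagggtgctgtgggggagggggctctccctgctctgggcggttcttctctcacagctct
The match in C1qb began 30 bases before the start site on the gene's own strand, and the match in C1qc lay 193 bases before it on the opposite strand. Cd68 held 1 match and Mrc1 held 3, so that 4 of the 6 promoters had at least 1, and 23.3% of 32851 promoters of this length did. The C/EBP motif TTGCNNAA was found only in Cd68 of these 6, against 9.56% of all promoters. The AP-1 motif TGANTCA was likewise found only in Cd68, with 2 matches, against 6.75% of all promoters. These are matches of letters, and no file used here measured binding.

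The muscle comparison asks how fast and slow muscle differ in these genes within each genotype. In WT mice, C1qa, C1qb and C1qc fell in EDL relative to soleus by 1.82-, 1.69- and 1.81-fold, and the receptors Csf1r and Cd14 fell by 1.31- and 1.42-fold. In Ts1Cje mice, C1qb, C1qc and Cd14 fell by 1.48-, 1.89- and 1.53-fold. The WT and Ts1Cje comparisons share no arrays. In bulk muscle, fewer cells of a type and less RNA per cell cannot be told apart.

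With 5 of 9 genes called lower in EDL in WT (55.6%), the share compares with 29.2% of all tested genes called in either direction and 10.4% called lower. In Ts1Cje, 3 of 9 were called (33.3%), all lower, against 30.1% of all genes in either direction and 12.5% lower. C1qb, C1qc and Cd14 were called lower in both genotypes, as were 7.23% of all tested genes. The median difference of the 9 genes was -0.51 in WT and -0.57 in Ts1Cje, beside medians of 0.05 and 0.01 over all tested genes. In C1qa, C1qb, C1qc, Csf1r, Adgre1 and Cd14 the group means were ordered, from low to high, as WT EDL, Ts1Cje EDL, WT soleus, Ts1Cje soleus. Cd68, Mrc1 and Lyz2 did not have that order, and its share over all genes was not counted. Further probes broke it, with means over the same groups of -1.82, -2.09, -1.65 and -1.56 for Adgre1 and 1.38, 1.35, 1.89 and 1.47 for Csf1r. The steps between genotypes within a muscle did not pass the test in any of these genes. Leaving out 1 array turned the EDL step for C1qa, Adgre1 and Cd14. Ts1Cje EDL against WT soleus was not tested.

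C1qc encodes the C chain, and it differed most firmly between the muscles. In EDL it stood at 0.75, 0.80 and 1.12 in WT and at 1.22, 1.40 and 0.88 in Ts1Cje. In soleus it stood at 1.82, 1.58, 1.75 and 1.84 in WT and at 2.40, 2.15, 2.09 and 1.71 in Ts1Cje. All 6 EDL arrays lay below all 8 soleus arrays, with a gap from 1.40 to 1.58. The difference of EDL minus soleus was -0.86 ± 0.17 (SE; limma adjusted p = 0.00231) in WT and -0.92 ± 0.17 (adjusted p = 0.00131) in Ts1Cje. An exact permutation test gave the smallest p that 3 against 4 arrays allow in each genotype. C1qc passed the threshold in every one of the 18 other fits made for WT and the 19 made for Ts1Cje.

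C1qb encodes the B chain. Its levels in EDL were -0.33, -0.51 and -0.13 in WT and 0.04, 0.16 and -0.27 in Ts1Cje. In soleus they were 0.68, 0.07, 0.29 and 0.71 in WT and 0.86, 0.74, 0.28 and 0.30 in Ts1Cje. Within each genotype the muscles did not overlap, but the highest Ts1Cje EDL array lay above the lowest WT soleus array. The difference was -0.76 ± 0.20 (limma adjusted p = 0.0114) in WT and -0.57 ± 0.20 (adjusted p = 0.0435) in Ts1Cje. The WT call was lost without WT EDL replicate 2 (adjusted p = 0.0522) and after another background correction (0.0706). The Ts1Cje call was lost in 6 of 12 other settings and without any of Ts1Cje EDL replicates 1, 2 and 3 or Ts1Cje soleus replicates 1 and 2 (adjusted p from 0.0517 to 0.152).

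C1qa encodes the A chain and had the widest spread of the 3 chains in EDL. In EDL it stood at -0.59, -1.20 and -0.24 in WT and at -0.27, -0.29 and -0.87 in Ts1Cje. In soleus it stood at 0.63, -0.08, 0.05 and 0.16 in WT and at 0.75, 0.53, 0.09 and -0.23 in Ts1Cje. All 6 EDL arrays again lay below all 8 soleus arrays, but by no more than the step from -0.24 to -0.23. The difference was -0.86 ± 0.28 (limma adjusted p = 0.033) in WT, and -0.76 ± 0.28 in Ts1Cje, which missed the threshold (adjusted p = 0.055) but passed it in 3 of 12 other settings and without Ts1Cje soleus replicate 4 (0.026). The WT call was lost in 3 of 11 other settings and without WT EDL replicate 1 or 2 or WT soleus replicate 1 or 4 (adjusted p from 0.0603 to 0.151).

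**Figure D1:**
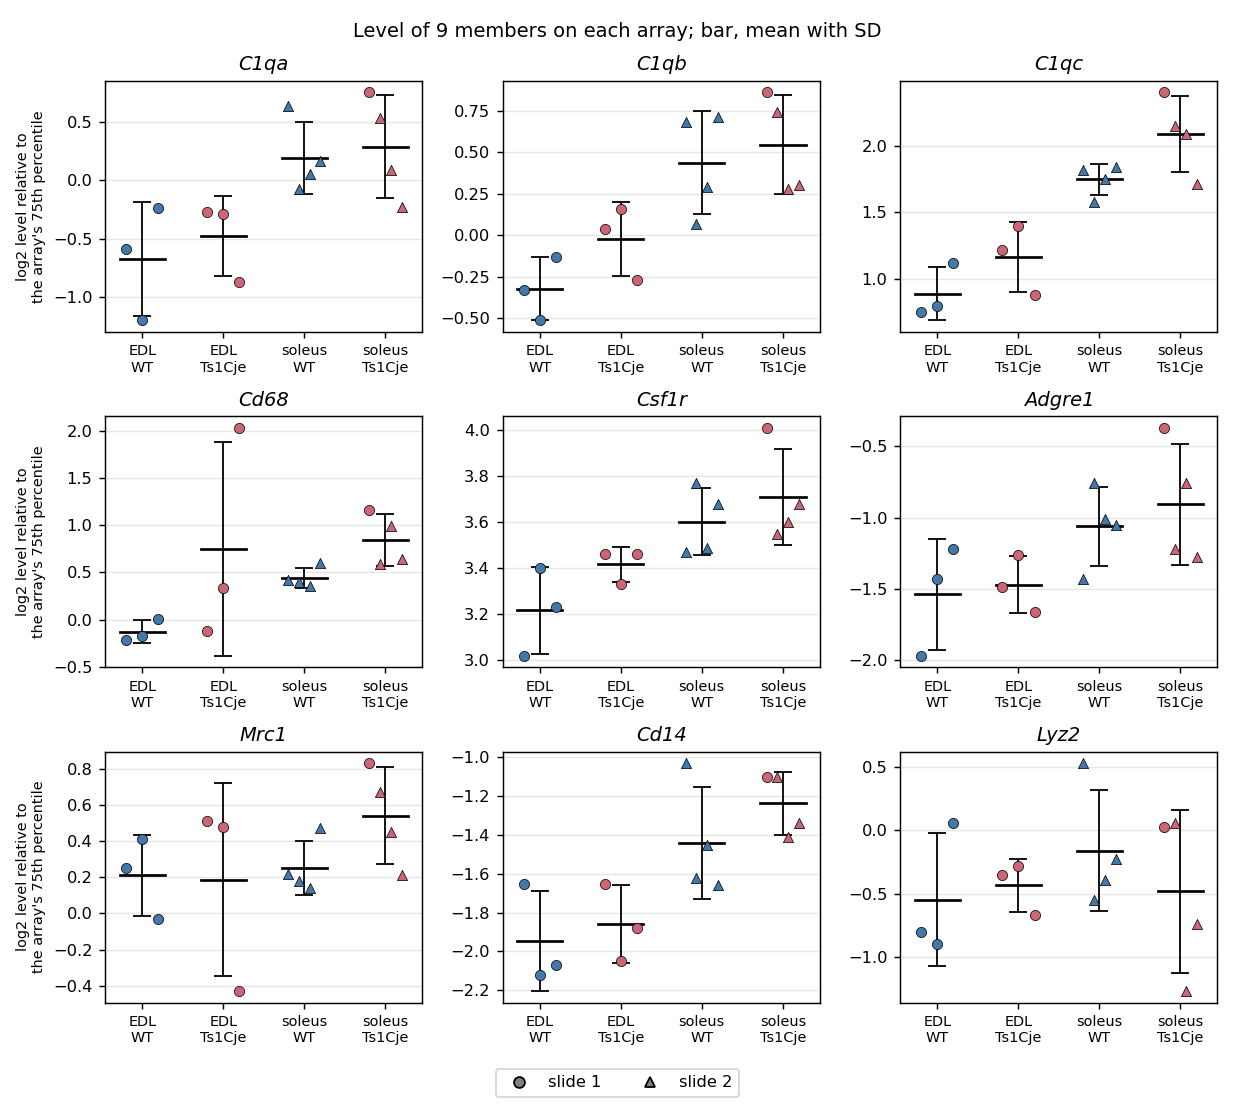
Log2 level relative to the array's 75th percentile (vertical axis, 1 panel per gene with its own scale) in the 4 groups on the horizontal axis; each point is 1 array, circles are slide 1, triangles slide 2, and bars give the group mean with SD. C1qa, C1qc and Csf1r are the genes for which all 6 EDL arrays lie below all 8 soleus arrays, and 1 Ts1Cje EDL array of Cd68 stands at 2.03.

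Csf1r encodes the receptor through which CSF1 and IL-34 sustain macrophages. In EDL it stood at 3.02, 3.40 and 3.23 in WT and at 3.46, 3.33 and 3.46 in Ts1Cje. In soleus it stood at 3.47, 3.77, 3.49 and 3.68 in WT and at 4.01, 3.55, 3.60 and 3.68 in Ts1Cje. The soleus arrays were all higher, with a gap from 3.46 to 3.47 between the muscles. The difference was -0.38 ± 0.13 (limma adjusted p = 0.0449) in WT and -0.29 ± 0.13 (adjusted p = 0.112) in Ts1Cje, where it passed in 3 of 12 other settings. The WT call was lost in 3 of 11 other settings and without WT EDL replicate 1 or 3 or WT soleus replicate 2, 3 or 4 (adjusted p from 0.0526 to 0.18). A second Csf1r probe differed by -0.48 in WT but by 0.10 in Ts1Cje, and another by -0.51 and -0.12, so the probes disagreed in Ts1Cje.

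Cd14 encodes the co-receptor that passes lipopolysaccharide to Toll-like receptor 4. In EDL it stood at -1.65, -2.12 and -2.07 in WT and at -1.65, -2.05 and -1.88 in Ts1Cje. In soleus it stood at -1.03, -1.62, -1.45 and -1.66 in WT and at -1.10, -1.10, -1.41 and -1.34 in Ts1Cje. The WT muscles overlapped, since the highest EDL array lay just above the lowest soleus array, and the Ts1Cje muscles did not. The difference was -0.51 ± 0.17 (limma adjusted p = 0.0427) in WT and -0.62 ± 0.17 (adjusted p = 0.0177) in Ts1Cje. The WT call was lost in 9 of 11 other settings and without WT EDL replicate 2 or 3 or WT soleus replicate 1 or 3 (adjusted p from 0.072 to 0.148). The Ts1Cje call was lost in 3 of 12 settings and without Ts1Cje EDL replicate 2 (adjusted p = 0.0736). With normexp background correction the difference shrank to -0.12 in WT (adjusted p = 0.52) and -0.04 in Ts1Cje (0.81).

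The other 4 tested genes did not pass the threshold between muscles in either genotype. Adgre1, a surface marker of mature mouse macrophages, stood at -1.54 ± 0.39 (SD, n = 3) in WT EDL and -1.06 ± 0.28 (n = 4) in WT soleus, and at -1.47 ± 0.21 (n = 3) and -0.90 ± 0.43 (n = 4) in Ts1Cje. Its muscle differences, -0.48 ± 0.24 (SE; limma adjusted p = 0.156) and -0.57 ± 0.24 (0.0931), were near those of Cd14 in size but with a larger error. A second Adgre1 probe differed by -0.17 and -0.53. Mrc1, the mannose receptor of resident macrophages, differed by -0.04 ± 0.22 (adjusted p = 0.904) and -0.35 ± 0.22 (0.248). Lyz2 differed by -0.39 ± 0.35 (adjusted p = 0.432) and 0.04 ± 0.35 (0.937), and its soleus arrays ranged from -1.27 to 0.53.

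Cd68 was uneven, and its Ts1Cje values turned on 1 array. In WT it stood at -0.22, -0.17 and 0.01 in EDL and at 0.42, 0.40, 0.36 and 0.60 in soleus, so the muscles did not overlap, and the difference was -0.57 ± 0.37 (limma adjusted p = 0.264). It passed when only the WT arrays were fitted, with their own smaller spread (adjusted p = 0.00873). In Ts1Cje it stood at -0.12, 0.34 and 2.03 in EDL and at 1.16, 0.59, 0.99 and 0.64 in soleus, and the difference was -0.09 ± 0.37 (adjusted p = 0.869). Without Ts1Cje EDL replicate 3, the array at 2.03, the Ts1Cje difference was -0.73 (adjusted p = 0.0109). On that same array C1qa, C1qb, C1qc, Mrc1, Adgre1 and Lyz2 were the lowest of their group, at -0.87, -0.27, 0.88, -0.43, -1.66 and -0.67. The summed level of adipocyte markers was 704 there, beside 141 and 159 on the other Ts1Cje EDL arrays, while their mean log2 level was 1.32, beside 0.14 and 1.26. Their part in the Cd68 value was not tested. A second, dim Cd68 probe was well above background on 2 of the 14 arrays, 1 of which was this array.

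Cd163 marks a scavenging state of resident macrophages. Its only probe, on chromosome 6 from 124270436 to 124270495 in mm9, was not well above background on any of the 14 arrays, with signals from -6.06 to -3.43, so no difference was measured.

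**Figure D2:**
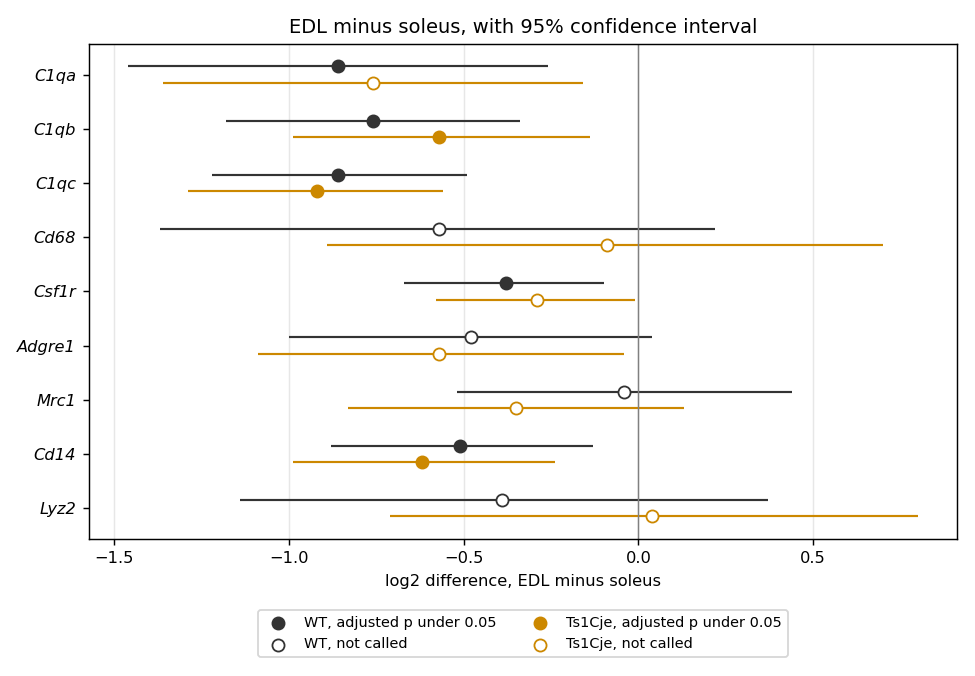
Difference in log2 level between EDL and soleus (horizontal axis) for the 9 tested genes (vertical axis), in WT (dark) and Ts1Cje (orange), with 95% confidence intervals from limma; filled points passed an adjusted p of 0.05. For 8 of the 9 genes both points lie left of 0, and C1qb, C1qc and Cd14 are filled in both.

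Counting arrays rather than fitted values, 5 of 9 genes had no overlap between EDL and soleus in WT and 5 of 9 in Ts1Cje. Over all tested genes 38.5% had no overlap in WT and 35.4% in Ts1Cje, and 14.1% and 15% had no overlap with EDL lower. C1qa, C1qc and Csf1r, 3 of 9, had every EDL array below every soleus array, which 6.06% of all tested genes had.

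The slides allowed 1 direct comparison, because Ts1Cje soleus replicate 1 shared a slide with the EDL arrays. Within that slide all 9 genes were lower in Ts1Cje EDL than on this array, by a median of -0.75. C1qc was the 1 gene called, at -1.23 (limma adjusted p = 0.0397), where 6.85% of all genes were called. With 1 soleus array, the spread in that fit came from the EDL arrays, and the soleus array was assumed to vary as they do. That soleus array was also the highest of all 14 arrays in 6 of the 9 genes, and the median of the 9 genes was 0.83 on it, against -0.51 to 0.59 on the others. Without it, in Ts1Cje, C1qc differed by -0.82 (adjusted p = 0.00353), Cd14 by -0.57 (0.0399) and C1qb by -0.46 (0.101). With slide as a term in the fit, which then rests on this array, C1qc differed by -1.27 (adjusted p = 0.0176) in WT and by -1.23 (0.00524) in Ts1Cje.

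The genotype comparison asks whether the trisomy shifts these genes within a muscle. No gene of the 9 passed the threshold in EDL or in soleus, nor in the mean over both muscles. Over all tested genes, 0.00706% were called in EDL, 0.24% in soleus and 0.261% in the mean. At an unadjusted limma p under 0.05 the counts were 1 of 9 in EDL, 1 of 9 in soleus and 2 of 9 in the mean, beside 2.9%, 12.9% and 9.23% of all genes. On the 1 probe that stood for each gene, the groups overlapped in all 9 genes in both muscles. Over all genes, 5.6% in EDL and 7.86% in soleus had no overlap. A further Csf1r probe, given below, did not overlap in soleus.

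Most values were higher in Ts1Cje without passing the test. In EDL 8 of 9 genes and in soleus 8 of 9 had a higher mean in Ts1Cje, as did 52.1% and 60.3% of all genes, with median differences of 0.20 and 0.16 beside 0.01 and 0.06 over all genes. The EDL median was 0.10 without Ts1Cje EDL replicate 1, 0.12 without WT EDL replicate 2, 0.39 without WT EDL replicate 3 and 0.07 with normexp background correction. Without WT EDL replicate 1, 6 of the 9 genes were higher. With the mean of the kept probes of a gene, 7 of 9 were higher in EDL and 7 of 9 in soleus. In soleus the median was 0.01 without Ts1Cje soleus replicate 1, with 5 of 9 genes higher.

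The C1q chains differed in EDL by 0.20 ± 0.30 for C1qa, 0.30 ± 0.21 for C1qb and 0.27 ± 0.18 for C1qc (SE; limma adjusted p = 1 for each). In soleus they differed by 0.09 ± 0.26, 0.11 ± 0.18 and 0.34 ± 0.16, and C1qc had the smallest limma p of the 9 genes there (unadjusted 0.0488, adjusted 0.384), with an exact permutation p of 0.114. The 95% interval for C1qc in soleus ran from 0.00 to 0.68 on the log2 scale. It overlapped between the genotypes because Ts1Cje soleus replicate 4, at 1.71, lay below 3 WT arrays.

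Cd68 had the largest genotype difference of the 9 genes in both muscles, 0.88 ± 0.39 in EDL (limma adjusted p = 1, exact permutation p = 0.2) and 0.40 ± 0.34 in soleus (adjusted 0.614, exact 0.0571). The EDL value fell to 0.24 without Ts1Cje EDL replicate 3. Csf1r differed by 0.20 ± 0.14 and 0.11 ± 0.12, Cd14 by 0.09 ± 0.19 and 0.20 ± 0.16, and Adgre1 by 0.07 ± 0.26 and 0.16 ± 0.22, in EDL and soleus. Mrc1 differed by -0.02 ± 0.24 and 0.29 ± 0.20, and Lyz2 by 0.11 ± 0.37 and -0.32 ± 0.32. Further kept probes, described without a test, went partly the other way. A further Csf1r probe differed by 0.47 in EDL and -0.11 in soleus, and another by -0.03 and -0.42. On the latter, all Ts1Cje soleus arrays (1.36 to 1.66) lay below all WT soleus arrays (1.84 to 1.93). A second Adgre1 probe differed by -0.27 in EDL and 0.09 in soleus. With 3 arrays against 3, an exact permutation test cannot go below 0.1.

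**Figure D3:**
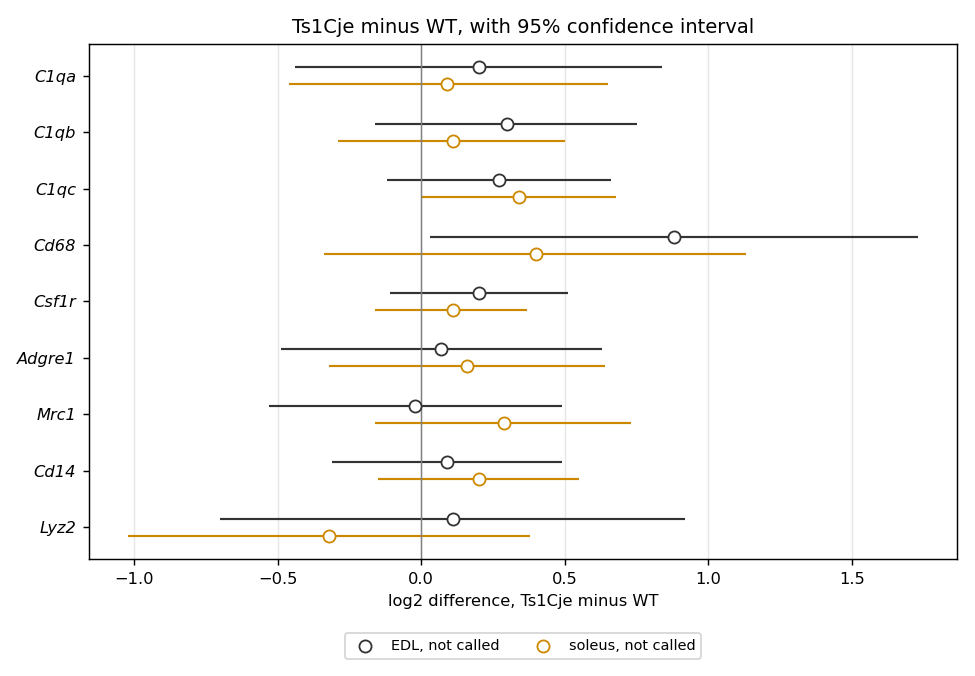
Difference in log2 level between Ts1Cje and WT (horizontal axis) for the 9 tested genes (vertical axis), in EDL (dark) and soleus (orange), with 95% confidence intervals from limma; open points did not pass an adjusted p of 0.05. All 18 points are open, and the widest departure is Cd68 in EDL at 0.88, with an interval from 0.03 to 1.73.

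The difference between the genotype effects in the muscles was tested as an interaction. None of the 9 genes was called, and 0% of all tested genes were (limma, 423 genes at an unadjusted p under 0.05, of which 0 were among the 9). Over the 9 genes the interaction ranged from -0.31 for Mrc1 to 0.48 for Cd68, with an adjusted p of 0.999 for each.

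How far the genes moved together from array to array was examined within each muscle, since several of them differed in level between the muscles. In EDL, 22 of 36 pairs of genes correlated positively, with a median Pearson r of 0.18. In soleus 30 of 36 did, with a median of 0.52. No pair passed an adjusted p of 0.05 over the 72 pairs by exact permutation, and 3 pairs in EDL and 10 in soleus were under 0.05 unadjusted.

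The C1q chains correlated positively with each other in both muscles. C1qb and C1qc correlated at r = 0.95 in EDL (Spearman rho 0.94, exact permutation p = 0.00833, adjusted 0.21), and at 0.96 without the 2 arrays farthest from the C1qb median. In soleus the same pair had r = 0.69 (rho 0.74, exact p = 0.066, adjusted 0.312). It was 0.29 without the 2 arrays farthest from the C1qb median, which narrows the C1qb range, and 0.77 within genotypes. C1qa and C1qb correlated at r = 0.86 in EDL (rho 0.71, exact p = 0.0292, adjusted 0.228) and at 0.86 in soleus (rho 0.76, exact p = 0.00878, adjusted 0.21). Without the 2 arrays farthest from the C1qa median those values were 0.76 and 0.78.

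The highest soleus value joined a C1q chain with the mannose receptor. C1qc and Mrc1 correlated at r = 0.93 (rho 0.90, exact permutation p = 0.000942, adjusted 0.0679), and at 0.75 without the 2 arrays farthest from the C1qc median. The lowest EDL value, -0.80 between Cd68 and Mrc1, involved the array on which Cd68 stood at 2.03 and Mrc1 at -0.43. Arrays of a muscle also share the scaling, and both genotypes entered each correlation.

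**Figure D4:**
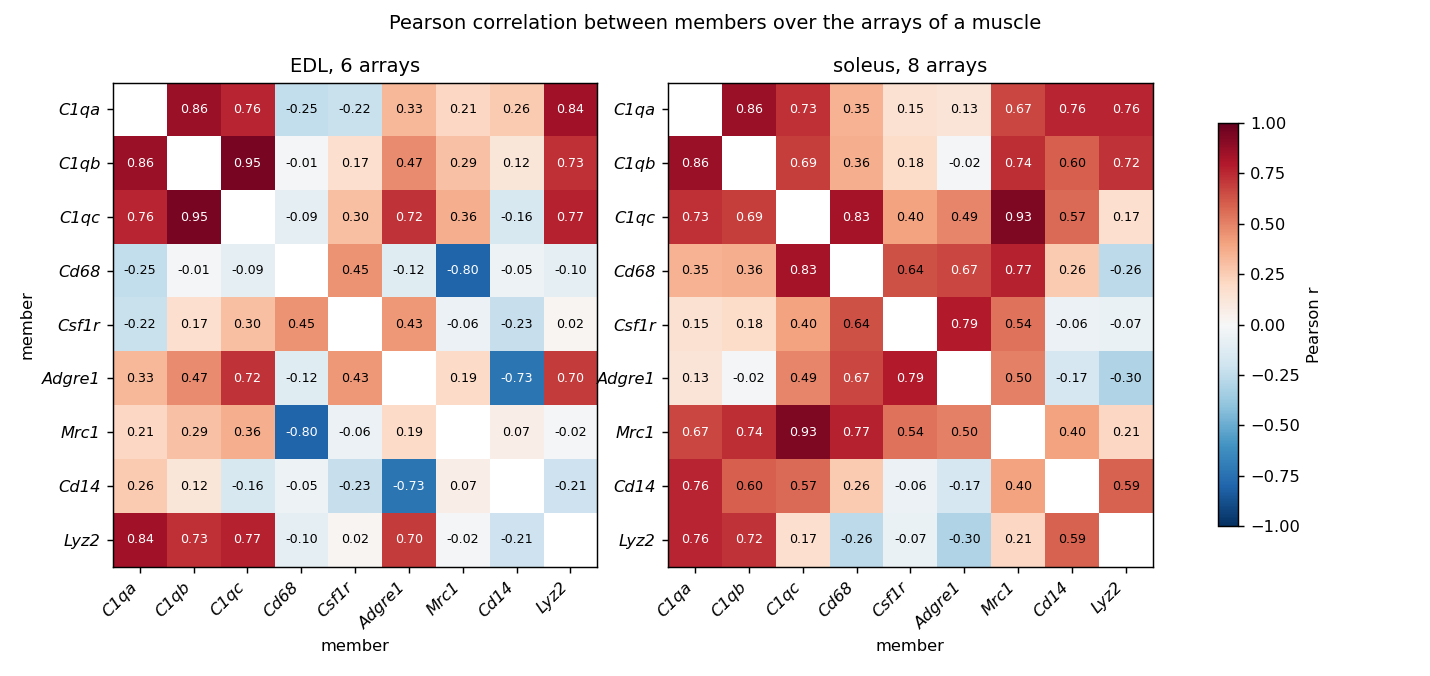
Pearson r for each pair of the 9 tested genes over the 6 EDL arrays (left) and the 8 soleus arrays (right), with both axes listing the genes and red for positive, blue for negative values. The C1q chains form a red block in both muscles, from 0.76 to 0.95 in EDL and from 0.69 to 0.86 in soleus.

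The mean of the 3 C1q chains ran from -0.30 to 0.42 over the EDL arrays and from 0.52 to 1.34 over the soleus arrays. The genes most like it in EDL, by Pearson r over 6 arrays, were Cracr2b (0.99), Col6a2 (0.988), Naaa (0.985), Dock11 (0.98), Pcsk5 (0.971) and Gm10509 (0.969). In soleus, over 8 arrays, they were Col4a1 (0.979), Rsu1 (0.964), H2bc1 (0.962), Grn (0.962), Col4a2 (0.958) and Mki67 (0.954). No gene was on both lists. Naaa and Col6a2 from the EDL list had r = 0.922 and 0.864 in soleus, while Gm10509 had -0.325. From the soleus list, Col4a1 had r = 0.709 in EDL, and Rsu1 had -0.335. Col6a2, Col4a1 and Col4a2 encode chains of extracellular matrix collagens. These are the highest of 14170 genes over few arrays, and they are given as a description.

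Other macrophage and monocyte markers were read beside the 9 genes. Of 30 listed, 20 were tested, of which 6 were called lower and 1 higher in EDL in WT (median -0.50), and 8 lower and 1 higher in Ts1Cje (median -0.43). That is 35% of the list in WT and 45% in Ts1Cje, beside 29.2% and 30.1% of all tested genes. Cx3cr1, the receptor for the chemokine Cx3cl1, fell in EDL in both genotypes, where it was not well above background on any array. It was at least 3.42-fold lower in WT and at least 3.45-fold lower in Ts1Cje. Cx3cr1 was tested only because its soleus arrays passed the filter, so no p-value is given for it. Lyve1 and Folr2, markers of resident macrophages, and the protease gene Ctss fell by 0.95, 0.93 and 0.74 on the log2 scale in WT and by 1.51, 0.87 and 0.86 in Ts1Cje. Trem2, a lipid receptor of macrophages, differed by -2.14 in Ts1Cje and by -0.93 in WT. It was well above background on 1 of 3 EDL arrays of each genotype. Trem2 was likewise tested only through its soleus arrays, so no p-value is given for it. The calls of Cx3cr1 and Trem2 are still counted in the list's shares above.

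Maf, a transcription factor of macrophages and other cells, was the exception and rose in EDL by 2.76 in WT and 2.75 in Ts1Cje. Several broad leukocyte or macrophage genes, among them Ptprc, Spi1, Cd86, Msr1 and Vsig4, were too dim to be tested. By genotype, 0 of these 20 markers were called in EDL and 0 in soleus, with medians of 0.18 and 0.21.

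Downstream of C1q, 9 of 15 listed genes of the classical and lectin pathways were tested. C4b, the C4 that activated C1s cleaves, fell in EDL by 1.40 in WT (limma adjusted p = 0.0223) and by 2.25 in Ts1Cje (0.00138). The protease gene C1ra fell in Ts1Cje (-0.47, adjusted p = 0.0113). C1s1, the partner protease, differed by 0.10 and -0.09, and C3 by 0.10 and -0.31, in WT and Ts1Cje. The list held 1 called gene in WT and 2 in Ts1Cje, with medians of 0.06 and -0.28, so its WT median stood near that of all genes while the C1q chains were lower. By genotype 0 of the 9 were called in either muscle, with medians of 0.00 in EDL, where 4 were higher and 4 lower to 2 decimals, and 0.34 in soleus, where 8 were higher. The muscle calls were 11.1% of the list in WT and 22.2% in Ts1Cje, beside 29.2% and 30.1% of all genes.

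Of the alternative and terminal pathways, regulators and receptors, 15 of 23 listed genes were tested. In WT 3 were called lower in EDL and 1 higher (26.7% of the list, beside 29.2% of all genes), and in Ts1Cje 6 lower and 2 higher (53.3%, beside 30.1%). The C3a receptor C3ar1 fell by 1.83 in WT and 1.13 in Ts1Cje, and the leukocyte integrin chain Itgb2 by 0.92 and 0.60. Factor D, encoded by Cfd and secreted by fat cells, fell in Ts1Cje (-2.99, limma adjusted p = 0.00774). Cd55, which limits complement on host cells, rose in EDL by 1.37 in WT and 1.40 in Ts1Cje. The regulator gene Cr1l fell by 0.33 and 0.48, and C8g, which encodes a chain of the terminal complex, rose in Ts1Cje by 0.65.

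The growth factors that act on Csf1r did not pass the test, with Csf1 at -0.11 and Il34 at 0.17 in WT. Of 9 tested growth factors and chemokines, Cx3cl1 was called in both genotypes, lower in EDL by 1.36 in WT and 1.23 in Ts1Cje, and Cxcl12 fell in Ts1Cje by 0.68. Among 8 tested partners of Cd14, Tlr4 fell in EDL by 1.30 in WT (limma adjusted p = 0.00312) and 0.94 in Ts1Cje (0.0195). Ly96, its binding partner, fell in WT by 0.55, and the transfer protein gene Lbp and the adaptor gene Ticam1 fell in Ts1Cje (-0.43 and -0.55). The calls were 37.5% of this list in WT and 50% in Ts1Cje, and 11.1% and 22.2% of the growth factors and chemokines. Over all tested genes 29.2% and 30.1% were called in either direction. The adaptor Tirap moved the other way and rose in EDL by 1.34 in WT and 1.83 in Ts1Cje.

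**Figure D5:**
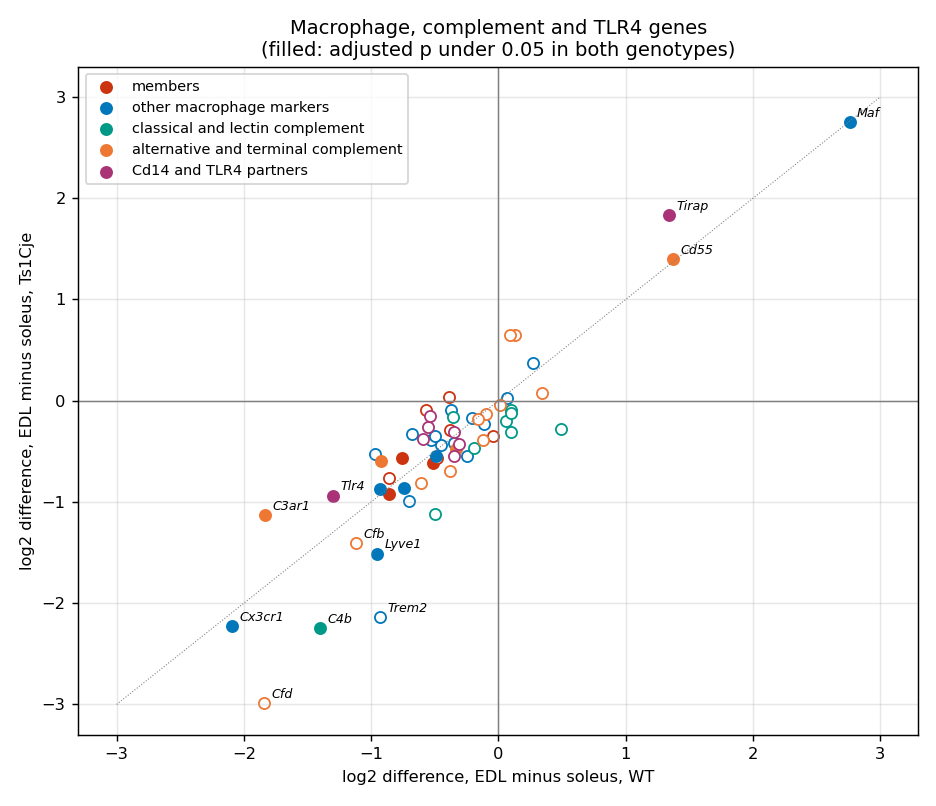
Difference in log2 level of EDL minus soleus in WT (horizontal axis) and Ts1Cje (vertical axis) for the 9 genes and for tested genes of 4 related lists; each point is 1 gene, filled where it passed an adjusted p of 0.05 in both genotypes, and the dotted line marks equal values. Most points lie below and left of 0, with Maf, Tirap and Cd55 filled at the upper right.

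Markers of other cell types were compared between the muscles too. For each list the linear signals were summed per array, a sum that its brightest probes lead. The 6 tested adipocyte markers summed to 112 to 331 in WT EDL, 141 to 704 in Ts1Cje EDL, 336 to 567 in WT soleus and 372 to 573 in Ts1Cje soleus. Of the 6, 2 were called lower in EDL in WT (Cidec and Fabp4) and 5 in Ts1Cje (Fabp4, Cidec, Plin1 and Adipoq by smallest p). That is 33.3% and 83.3% of the list, beside 29.2% and 30.1% of all tested genes called in either direction. Plin1 was not well above background on any Ts1Cje EDL array and was at least 4.94-fold lower there. Cidec was well above background on 2 of 3 EDL arrays of each genotype. Cidec and Plin1 were tested only through their soleus arrays, and their calls are counted in these shares. The mean log2 level of the 6 adipocyte markers was 0.28 to 2.76, 0.14 to 1.32, 2.08 to 3.51 and 2.67 to 3.50 over the same groups. The mean log2 level of the 9 macrophage genes was -0.19 to 0.08, 0.07 to 0.20, 0.33 to 0.59 and 0.33 to 0.95. The 5 tested mast cell markers summed to 1.65 to 2.19, 1.36 to 4.43, 2.91 to 4.76 and 3.14 to 6.92, with Tpsb2 lower in WT EDL. For 10 fibroblast markers the ranges were 401 to 597, 489 to 717, 446 to 654 and 455 to 812, with Mfap5 lower in EDL in both genotypes. For 10 endothelial markers they were 155 to 174, 160 to 220, 158 to 181 and 141 to 217, with Cdh5 and Tie1 lower in Ts1Cje EDL. In WT and Ts1Cje the calls were 20% and 0% of the mast cell list and 10% and 10% of the fibroblast list. Of the endothelial list they were 0% and 20%. All 3 lists lay below the shares of all tested genes.

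Neutrophils also express Lyz2 and Cd14. Of their list, 4 of 11 genes, S100a9, Ly6g, Elane and Camp, were bright enough to be tested, and 0 were called. Their signals summed to 10.5 to 11.9 in WT EDL, 9.03 to 12.3 in Ts1Cje EDL, 11.3 to 16.6 in WT soleus and 9.45 to 11.2 in Ts1Cje soleus. Others of the list, among them S100a8, Mpo and Ltf, were not well above background in any whole group. The part of neutrophils in the Lyz2 and Cd14 signals was not tested. Of the fibre genes, Myh7, the slow myosin, was at 3.91 in WT EDL and 10.18 in WT soleus. Myh4, a fast myosin, was at 11.45 and 9.26, so both moved as the labels say. Myh2, another fast myosin, went the other way, with EDL minus soleus at -2.3 in WT and -2.08 in Ts1Cje. Between genotypes in soleus, Myh4 and the fast-fibre calcium buffer Pvalb fell in Ts1Cje (log2 differences -4.13 and -1.88, limma adjusted p = 0.00751 and 0.00356). Of 7 tested genes of class II antigen presentation, which macrophages share with other cells, Ciita was called lower in WT EDL and 0 were called in Ts1Cje. That is 14.3% and 0% of the list, beside 29.2% and 30.1% of all tested genes called in either direction. Ciita was well above background on 1 of 3 EDL arrays of each genotype and was tested only through its soleus arrays. Of few tested lymphoid and dendritic genes, Cd22 was called lower in EDL in WT, Cd8b1 lower in Ts1Cje, Ccr7 lower in both and Nkg7 higher in both. In WT and Ts1Cje the calls were 25% and 50% of 4 tested T and NK cell genes. They were 25% and 0% of 4 B cell genes, and 33.3% and 33.3% of 3 dendritic cell genes. Ccr7 was well above background on 1 of 3 WT and 0 of 3 Ts1Cje EDL arrays, and it was tested only through its soleus arrays. It was at least 3.12-fold lower in Ts1Cje EDL. Cd8b1 was well above background on 1 of 3 Ts1Cje EDL arrays. The red cell gene Slc4a1 and the satellite cell gene Myod1 were called higher in EDL in both genotypes and Pax7 lower in WT. Pax7 was tested only through its soleus arrays. In WT and Ts1Cje the calls were 14.3% and 14.3% of the red cell list and 50% and 25% of the satellite cell list. The part of adipocytes, mast cells or fibre type in the C1q and macrophage differences was not tested.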

How the data were processed

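Total RNA of EDL and soleus from Ts1Cje and WT mice was hybridised to 14 single-colour Agilent arrays, per the labels' protocols after linear amplification from a low input of RNA. The deposited scanner files give background-corrected signal intensities per spot, which per the file headers came from version 11.5.1.1 of Agilent Feature Extraction (9.1 per the submitters' processing notes). The authors' deposited table gives log2 values of the same arrays, which correlated at 0.9999 or more with the recomputed ones, and it was used as an alternative. Each intensity was taken as log2 minus the log2 of the array's 75th percentile over 59305 non-control spots. Of 55681 probes, 25190 were kept because at least 1 group had them well above background on all its arrays. Where several kept probes named 1 gene, the one brightest on average stood for it, giving 14170 genes. Of the probes, 31796 were named through RefSeq, and 2138 symbols were updated.

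Group means were fitted to all arrays with limma 3.58.1 in R 4.3.3 (lmFit and eBayes, 10 residual and 2.79 prior degrees of freedom), p-values were two-sided and Benjamini-Hochberg adjusted over all genes, and calls were made at 0.05. The code was tested on simulated data. For a probe not well above background on any array of a group, the fold is a lower bound, the bright group's mean over the dim group's mean of, per array, the dimmest signal that still counted as well above background, or the probe's own if that was higher. The text names all members, called genes of a list up to 4 a comparison by smallest p (of the fibre list only examples), and the 6 genes most like the C1q mean in each muscle. Csf1, Il34, C1s1 and C3, which were not called, and the fibre genes were named after their values were seen. The members and the gene lists were chosen with earlier results of these data known. Deviations of same-numbered EDL arrays of the genotypes correlated at 0.40, 0.12 and 0.31. These values were not tested and do not settle whether the arrays were pairs. The replicate number was fitted as an alternative block. The number of slides and their near identity with muscle limit every muscle comparison. The alternatives also covered background correction, normalization, probe filters, array weights, slide terms and each array left out.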

Additional observations from a re-analysis of the deposited data

How the results depend on the processing

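A median over the members was taken as moved past 0.26 on the log2 scale, its SD between arrays of a group, and a count past 1.5 times. By that measure 14 counts or medians moved and 240 did not. The measure is wider than the genotype medians themselves, and many of the counts were 0 throughout, so it says little on the genotype comparisons. In WT, 5 members were called between muscles, against 2 with normexp background correction, 2 with no filter on dim probes, 3 with slide as a fixed term and 3 in the authors' deposited table, and 2 to 4 when 1 array was left out. In Ts1Cje, 3 were called, against 1 within slide 1 and 1 to 4 when 1 array was left out. The median difference was -0.27 in Ts1Cje with normexp (reported as -0.57) and -1.07 in WT with slide as a fixed term (reported as -0.51). Over all genes, 4143 were called between WT muscles, against 2317 with normexp and 1364 with slide as a fixed term, and 4271 between Ts1Cje muscles, against 2127 with slide fixed and 970 within slide 1. In soleus 34 genes were called by genotype, against 15 with normexp, 6 with no filter, 21 with the mean of probes, 18 with slide fixed, 1 within slide 2 and 1 with only the groups compared. The causes were not tested.

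Signs reversed for values that passed no threshold under either setting. With normexp these were C1qa (-0.06) and Cd14 (0.08) in the interaction and Cd68 between Ts1Cje muscles (0.03). With the mean of probes they were Adgre1 by genotype in EDL (-0.10) and Csf1r in soleus (-0.14), and with array weights Mrc1 in EDL (0.11) and C1qc (0.03) and Adgre1 (0.02) in the interaction. With slide as a random block Lyz2 between Ts1Cje muscles was -0.01. With slide as a fixed term the genotype differences in soleus were -0.06 for C1qa and -0.02 for Adgre1, as they were within slide 2, the interactions were 0.04 for C1qc and 0.09 for Adgre1, and Lyz2 between Ts1Cje muscles was -0.46, as within slide 1.

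Leaving out 1 array gave these ranges where a sign turned. By genotype in EDL they were Adgre1 -0.14 to 0.23, Lyz2 -0.06 to 0.42, Cd14 -0.01 to 0.24, C1qa -0.06 to 0.42 and Mrc1 -0.18 to 0.28. By genotype in soleus they were C1qa -0.06 to 0.27, Adgre1 -0.02 to 0.28 and C1qb -0.02 to 0.20. In the interaction they were Csf1r -0.01 to 0.19, Cd14 -0.25 to 0.04, C1qa -0.15 to 0.32, C1qc -0.19 to 0.07, Adgre1 -0.30 to 0.09 and Cd68 -0.16 to 0.91. Between muscles they were Cd68 -0.73 to 0.34 and Lyz2 -0.22 to 0.22 in Ts1Cje and Mrc1 -0.14 to 0.08 in WT, and Lyz2 in the mean genotype effect was -0.19 to 0.05.

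With the replicate number as a block, 0 members were called in the genotype comparisons and the interaction, as without it, and their medians stayed at 0.20, 0.16, 0.15 and 0.09. Over all genes the block gave 1 call in EDL, as without it, 4 against 34 in soleus and 5 against 37 in the mean. Same-numbered soleus arrays did not deviate together (correlations from -0.29 to 0.01), and pairing was not tested in either muscle. With 3 or 4 arrays a group, no genotype difference of the 9 genes passed the adjusted threshold, and signal over background limits Cd163.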
